A study of Mus musculus with 2 samples.

Results

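Prm1, Prm2, Prm3, Tnp1 and Tnp2, the protamine and transition protein genes, were described in single cells of mouse testis across the stages of spermatid development, as transcripts found in cells that should not make them, and between genotypes. The 5 genes were taken by name and were all present among the 36547 genes of the count tables. The samples were testes of 12-week-old C57BL/6 mice, 1 library of wild-type animals (WT) and 1 library of Alkbh5-/- animals (KO), which lack the RNA demethylase ALKBH5. The labels do not give the number of mice behind a library. Because each genotype was 1 library, no test between genotypes was possible, each difference has no replicate check, and all intervals below are 95% intervals that cover counting error only.

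In late spermatids the DNA is repacked into a small, silent nucleus. Transition proteins, encoded by Tnp1 and Tnp2, take the place of most histones, and the arginine-rich protamines encoded by Prm1 and Prm2 then take the place of the transition proteins. The mRNAs are made well before the proteins and are stored in the cytoplasm, which makes these genes the classical example of delayed translation in the male germ line. Prm3 lies among the protamine genes but encodes an acidic protein that is not a DNA-packing protamine.

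In the mouse genome (GRCm38, GENCODE vM21) Prm1, Prm2, Prm3 and Tnp2 lie on the minus strand of chromosome 16 within 17904 bases, with Tnp2 at chr16:10787936-10788660, Prm3 at chr16:10790505-10790914, Prm2 at chr16:10791380-10796134 and Prm1 at chr16:10796326-10805839. Tnp1 lies alone on chromosome 1, at chr1:73015074-73015909, also on the minus strand. Prm3 has 1 exon, and the first listed coding transcript of each of the other 4 genes has 2. Tnp1 shares 40 bases of exon with 1700027A15Rik, a gene on the opposite strand, and whether strand was used in counting is not given in the sources used here, so a part of the Tnp1 count could belong to that gene. The coding sequences show how unlike the 5 products are, and those of Prm1 and Tnp1 are printed below with every arginine codon in capitals, followed by the 50 codons of Prm3 (codons 40 to 89) that hold the most glutamate codons, which are in capitals there.
Prm1: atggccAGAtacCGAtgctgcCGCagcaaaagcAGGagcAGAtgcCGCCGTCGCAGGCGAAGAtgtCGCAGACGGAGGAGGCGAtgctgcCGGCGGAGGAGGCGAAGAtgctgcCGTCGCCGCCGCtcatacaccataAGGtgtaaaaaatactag
Tnp1: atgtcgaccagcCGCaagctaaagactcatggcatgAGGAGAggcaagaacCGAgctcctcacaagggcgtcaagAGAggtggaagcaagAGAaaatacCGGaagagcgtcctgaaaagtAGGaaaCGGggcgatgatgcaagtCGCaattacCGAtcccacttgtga
Prm3, codons 40 to 89: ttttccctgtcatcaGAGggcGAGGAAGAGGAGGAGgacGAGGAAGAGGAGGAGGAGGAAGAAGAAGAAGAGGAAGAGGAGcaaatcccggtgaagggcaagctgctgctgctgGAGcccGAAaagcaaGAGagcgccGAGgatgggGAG
Arginine codons made up 54.9% of the 51 codons of Prm1, 35.5% of the 107 codons of Prm2, 20% of the 55 codons of Tnp1 and 13.7% of the 117 codons of Tnp2. In Prm3 they made up 1.98% of 101 codons, and 26.7% of its codons were for glutamate, against none in Prm1 and Tnp1. Cysteine codons, whose products form the disulphide bridges between protamines, were 9 in Prm1 and 7 in Prm2. Tnp2 had 6 and Prm3 had 2, and they were absent from Tnp1.

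The 250 bases upstream of each RefSeq start site (GRCm38) were searched on both strands for TGANNTCA, a palindrome that includes the classical cyclic AMP response element, and the bases 40 to 16 before the start for TATA. TGANNTCA occurred once each in Prm1, Prm3 and Tnp1 and not in Prm2 and Tnp2, and it occurred in 11.9% of all 32817 promoters. TATA occurred in Prm1, Prm2 and Tnp2 and not in Prm3 and Tnp1, and it occurred in 5.92% of all promoters. Both motifs read the same on either strand, and in Prm2 and Tnp2 a further TATA overlaps the one shown. Windows of 30 bases with the match in capitals are shown so that Prm3, whose transcript appeared at another stage, can be set beside the genes that rose later. A match describes the letters only.
Prm1 (chr16:10796869-10796898, minus strand): ctggtcctcttTGACTTCAtaattcctagg
Tnp1 (chr1:73015975-73016004, minus strand): gcaaaggttagTGATGTCAcaagagagctg
Prm3 (chr16:10790956-10790985, minus strand): tggagcctttgTGAGGTCAgtgccacaccc
Prm1 (chr16:10796837-10796866, minus strand): ccactagtatcTATAagaggaagagggtgc
Prm2 (chr16:10792116-10792145, minus strand): gggtttaccttTATAtatgagccctctgag
Tnp2 (chr16:10788672-10788701, minus strand): atcggcccagcTATAtaactaggggctgtg
Prm1 held both motifs, with TGANNTCA at 64 to 57 and TATA at 32 to 29 bases before the start. The TGANNTCA match lay at 60 to 53 bases before the start in Prm3 and at 94 to 87 in Tnp1.

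The WT library held 5756 cells and 80283221 unique molecular identifiers (UMIs, each standing for 1 captured mRNA molecule), and the KO library held 7012 cells and 82056760 UMIs, with medians of 10905.5 and 9117.5 UMIs per cell. The libraries had 45 cell barcodes in common. Alkbh5, the deleted gene, was counted 607 times in WT and 5 times in KO. Cells fell into 16 clusters, of which 12 germ cell clusters formed a single path of neighbours from spermatogonia-like to elongating spermatid-like cells, and the 5 genes were left out of the genes used for clustering. Names ending in -like rest on marker genes, and 1 cluster stayed unnamed. It was led by Cd46 and lay between mid-stage and late-stage round spermatid-like cells, and Cd46 is itself on the list of mid-stage markers. The late-stage name rests on 3 markers. The 4 elongating spermatid-like clusters are called by a leading gene, in stage order Prss58, Tex37, Klk1b8 and Car2. They held 547, 649, 658 and 565 cells in WT and 499, 400, 264 and 153 in KO, so the KO library was thinner towards the end of the path.

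Prm3 was the first of the 5 genes to appear. In mid-stage round spermatid-like cells its median was 14.0 UMIs per 10000 UMIs of a cell in WT and 8.69 in KO. The median was 0 in both libraries in Leydig-like cells, named for the somatic cells that make testosterone and should hold none of these mRNAs. The Leydig-like cluster held 93 WT and 1170 KO cells and may include other somatic cells. In a finer clustering (resolution 0.8) the Leydig cluster held 77 and 1084. A stromal fibroblast or peritubular cluster of 16 and 87 cells, which the main clustering lacked, stood apart there. Cells were also thinned to 5729 UMIs, and cells with fewer, 362 of the whole WT and 914 of the whole KO library, were left out. Of the thinned mid-stage cells, 100% in WT and 97.0% in KO held a Prm3 UMI, against 34.9% and 16.3% of Leydig-like cells. The unthinned shares were 100% and 99.1% against 37.6% and 19.6%, at median depths of 13381 and 12390 UMIs in mid-stage and 9977 and 7888.5 in Leydig-like cells. One stage earlier, in early-stage round spermatid-like cells, the thinned shares for Prm3 were still 71.4% in WT and 59.7% in KO, both above the 23.7% and 18.9% of the late spermatocyte-like Pabpc6 cluster, which precedes it. The mean level of the Pabpc6 cluster came mostly from cells called doublets by Scrublet, which scores a cell by its likeness to simulated pairs of cells. Without all called doublets Prm3 went from 38.5 CPM (UMIs of the gene per 1000000 UMIs of all genes) in the Pabpc6 cluster to 366.6 in early-stage round cells of WT, and from 50.7 to 202.5 in KO. Prm1 went from 998.6 to 1342 in WT and from 1065 to 645.3 in KO over the same step.

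Tnp1 came next. Its thinned share in mid-stage cells was 92.4% in WT and 88.6% in KO, against 43.0% and 30.4% in Leydig-like cells. For Tnp2 the mid-stage shares were 64.7% and 62.1%, against 47.7% and 40.4%. Prm1 and Prm2 lay near the Leydig-like level at this stage. The Leydig-like median of Prm1, 9.56 UMIs per 10000 in WT and 4.69 in KO, was close to the mid-stage medians of 8.15 and 5.33, and the medians of Prm2 were 2.99 and 1.56 in Leydig-like against 2.63 and 1.68 in mid-stage cells. Against the spermatocytes instead, Prm1 was higher in mid-stage cells. Without called doublets its median was 7.43 in WT and 4.72 in KO mid-stage cells, 4.29 and 1.91 in the Pabpc6 cluster and 3.63 and 1.74 in the Piwil1 cluster.

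**Figure D1:**
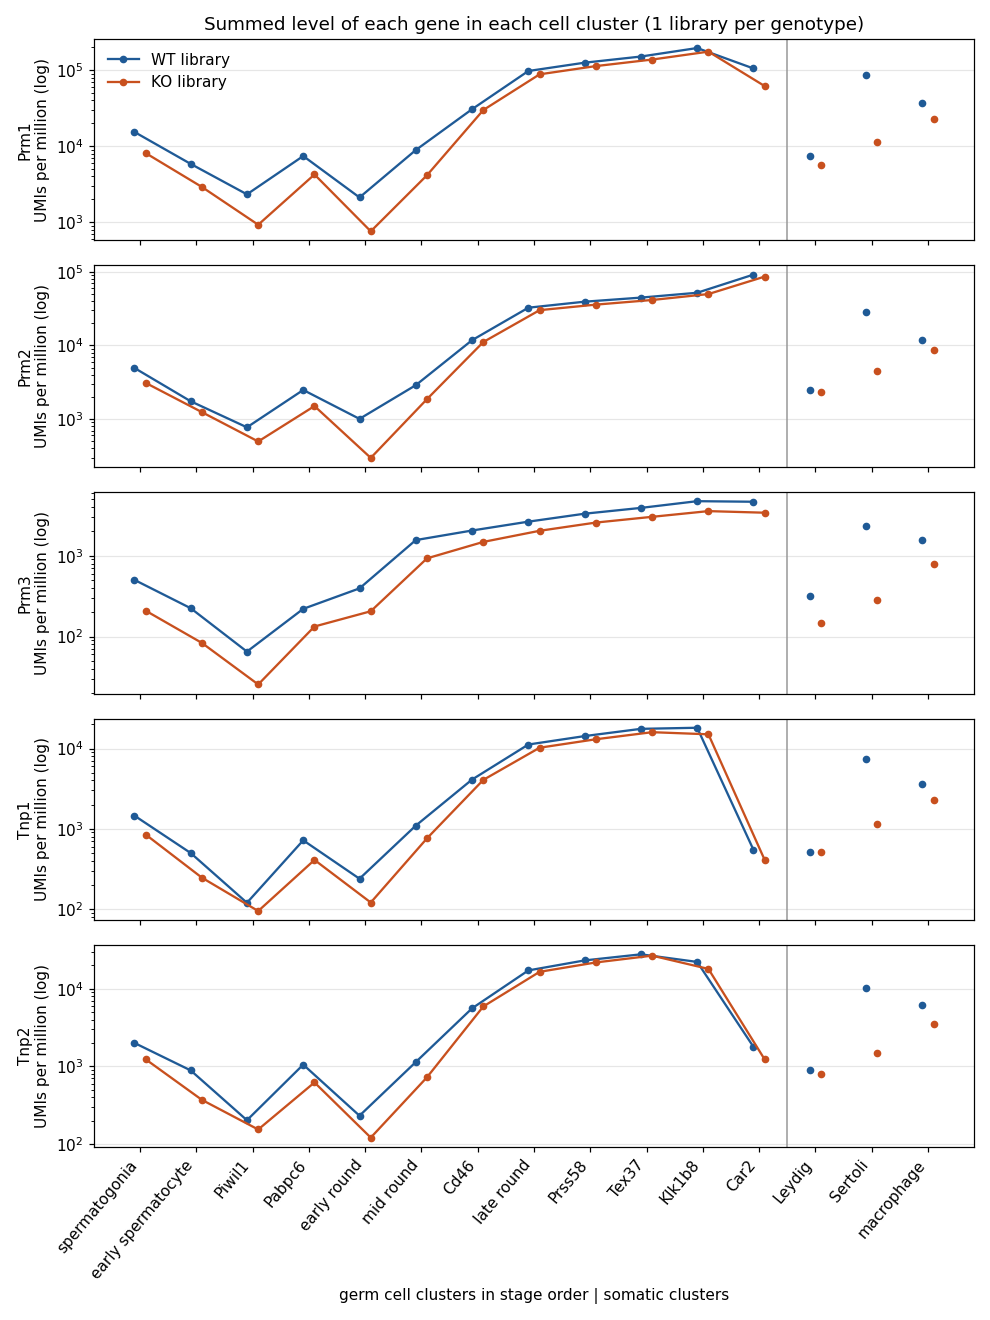
UMIs of each gene per 1000000 UMIs (log axis) in each cluster of the WT and KO libraries, with 12 germ cell clusters in stage order and 3 somatic clusters on the right. Prm3 had its main rise before the Cd46 cluster, at 1559 in WT in mid-stage cells against 2047 in the Cd46 cluster, while the other 4 genes rose mostly from the Cd46 cluster onwards and Tnp1 and Tnp2 fell in the Car2 cluster.

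The large rise of the other genes began in the Cd46 cluster. Prm1 stood there at 30710 CPM in WT and 29940 in KO. Without called doublets, which carried most of the mid-stage mean, it went from 1344 CPM in mid-stage cells to 28420 in the Cd46 cluster of WT and from 1199 to 29110 in KO. With all cells it then rose a further 3.18 times in WT and 2.95 times in KO to the late-stage round spermatid-like cells, where it reached 97780 and 88410 CPM. Prm3 rose by only 1.29 and 1.37 times over that last step. Cells of the Cd46 cluster were spread widely in between: the middle 50% of WT cells had 105 to 859 UMIs of the 5 genes per 10000 and of KO cells 173 to 744, whereas late-stage cells were narrow, at 1487 to 1732 and 1319 to 1611.

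From late-stage round to Klk1b8 cells the 5 genes took a growing part of the transcriptome. Their sum was 16.1% of all UMIs in WT late-stage cells, 20.6% in the Prss58 cluster, 24.5% in the Tex37 cluster and 29.3% in the Klk1b8 cluster. In KO the same clusters stood at 14.7%, 18.7%, 22.5% and 26.2%. A median Klk1b8 cell of WT held 1566 Prm1, 396.5 Prm2, 38 Prm3, 153.5 Tnp1 and 177.5 Tnp2 UMIs, and one of KO held 1282, 363, 26, 114.5 and 133. UMIs count molecules from their poly(A) end and were not divided by length, but capture may still differ between genes. Of all Prm1 UMIs of a library, 78.2% in WT and 65.2% in KO lay in the 4 elongating clusters. For Prm3 these shares were 64.41% and 51.55%, and mid-stage round cells held a further 11.51% and 11.80%.

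The Car2 cluster, the last of the path, held a different mixture. Its leading genes also include Tssk6, Spem1 and Oaz3, which are known from the latest spermatids. Between the Klk1b8 and Car2 clusters Tnp1 fell 33.2-fold in WT, from 18140 to 546.5 CPM, and 36.9-fold in KO, from 15030 to 407.8 CPM. Tnp2 fell 12.4-fold in WT and 14.6-fold in KO. Prm1 fell 1.86-fold and 2.84-fold, Prm3 stayed within 1.05-fold in either library, and Prm2 alone rose, by 1.76 and 1.73 times, to 91400 and 85940 CPM.

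The balance of the protamine transcripts shifted towards Prm2 at this last step. The Prm2 share of the UMIs of Prm1 and Prm2 fell slowly from 24.95% (24.85 to 25.05) in WT late-stage cells to 20.9% (20.84 to 20.96) in the Klk1b8 cluster, and was 46.4% (46.29 to 46.48) in the Car2 cluster. In KO it went from 25.4% to 22.1% and then 58.1% (57.91 to 58.37). Among single Car2 cells with at least 50 UMIs of both genes together, the Prm2 share ran from 14.99% to 99.56% in 556 WT cells and from 19.43% to 99.14% in 153 KO cells. Prm2 made up more than 50% in 40.65% of these WT cells and 62.75% of these KO cells, against 0.152% of 658 WT cells and none of 264 KO cells of the Klk1b8 cluster.

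Cells from the late-stage round cluster onwards were also ranked by pseudotime, a distance along the path computed without the 5 genes. The elongating spermatid-like cells among them were cut into 10 bins of equal size over both libraries, and late-stage round cells are in no bin. Tnp2 was highest in bin 5, at 28590 CPM in WT and 27930 in KO. Tnp1 was highest in bin 7 in WT (22260) and bin 6 in KO (19390), and Prm1 was highest in bin 8 in WT (205200) and bin 7 in KO (177600). Prm2 rose to the last bin in both libraries, to 110000 and 93690. Prm3 was highest in bin 9 in WT, at 5457, and in KO bins 8 and 9 were level, at 3752 and 3763. The peaks thus came in the order Tnp2, Tnp1 and Prm1 in either library, and Prm2 was highest in the last bin.

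**Figure D2:**
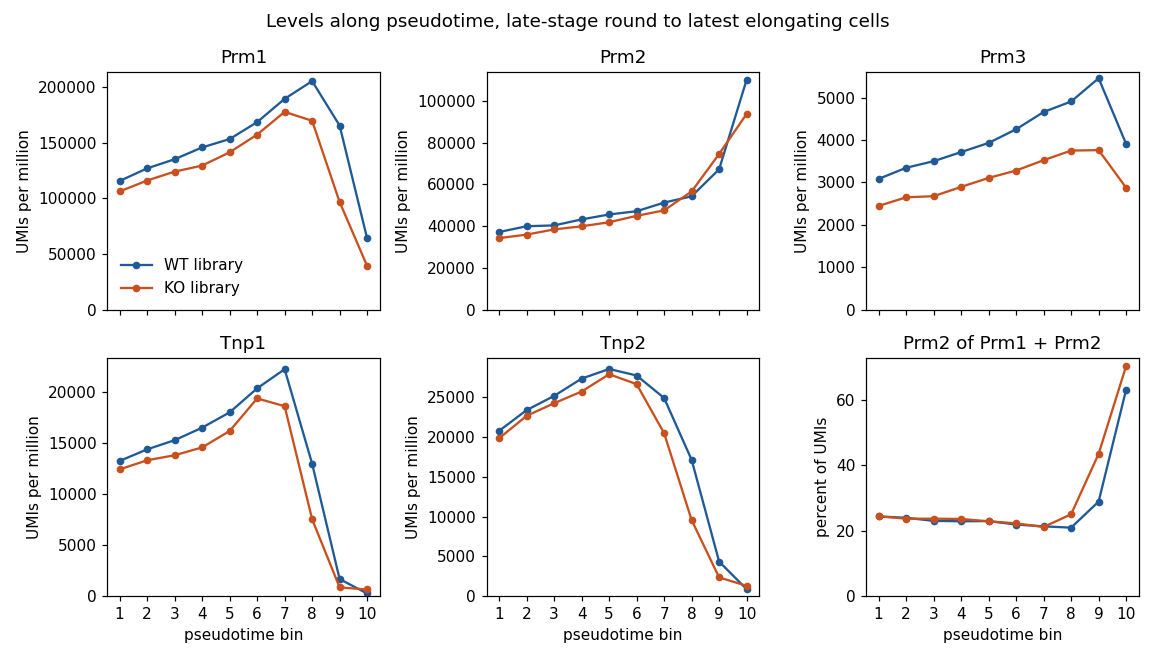
CPM of each gene, and percent of Prm1 and Prm2 UMIs that were Prm2, in 10 bins of pseudotime. The bins hold elongating spermatid-like cells of the WT (blue) and KO (orange) libraries. Late-stage round cells, although named in the heading, are in no bin. The lines run close together up to bin 6 except for Prm3, and in bins 8 and 9 the KO values of Prm1, Tnp1 and Tnp2 lie lower while the Prm2 share lies higher.

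The Prm2 share differed most between the libraries in the last 3 bins, where it was higher in KO. In the earlier bins the shares lay close, as in bin 4 at 22.87% in WT and 23.58% in KO. There the KO share was slightly lower in bins 2, 5 and 7 and slightly higher in the others. In bin 8 it was 20.92% in WT and 25.02% in KO, in bin 9 it was 28.9% and 43.5%, and in bin 10 it was 63.2% and 70.4%. Tnp1 in bin 8 was 12980 CPM in WT and 7526 in KO, and Tnp2 was 17140 and 9551. In bin 10, where few transition protein transcripts remained, Tnp1 was higher in KO, at 629.8 against 238.1 CPM. The last 3 bins held 266, 299 and 296 WT cells and 108, 74 and 78 KO cells, and whether cells of the genotypes sit at different positions within a bin was not tested.

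**Figure D3:**
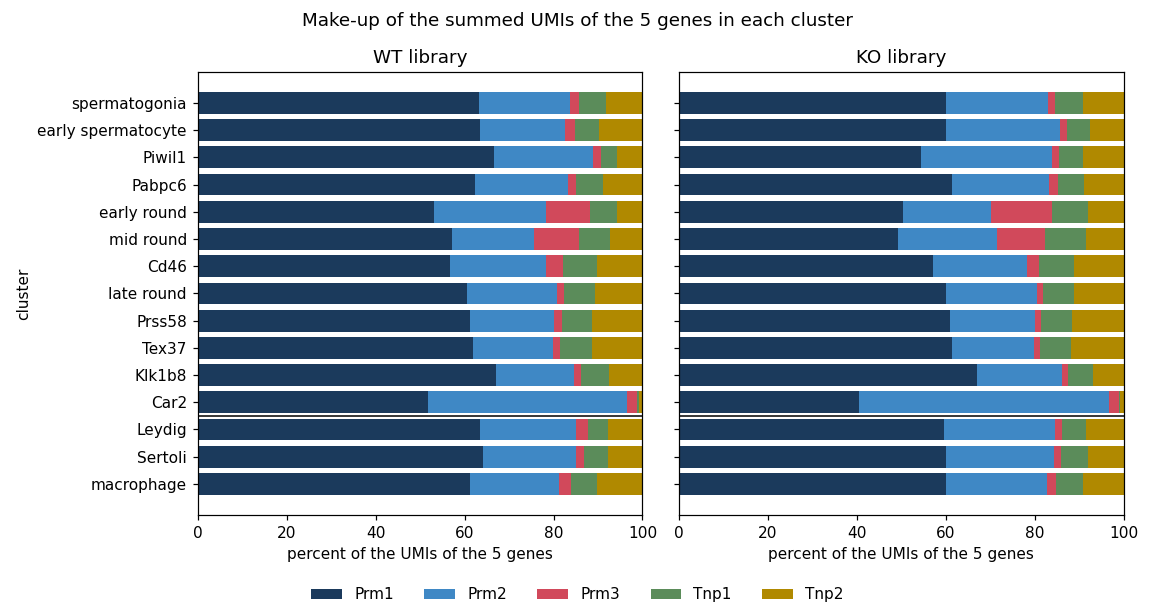
Percent of the summed UMIs of the 5 genes that each gene made up, by cluster (rows) in the WT and KO libraries. Prm3 is widest in early-stage and mid-stage round cells, Prm2 is widest in the Car2 cluster, and in the clusters before the round spermatids and the somatic clusters Prm1 is widest and Prm3 narrow.

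Over 31 clusters of the libraries with at least 20 cells, Pearson correlations of log2(CPM + 1) place the 5 genes beside different genes. Clusters of 1 library share depth and background, so the values are descriptions. Tnp1 and Tnp2 were most alike (r = 0.987), followed by Prm1 and Prm2 (r = 0.980), and Tnp1 was least like Prm2 and Prm3 (r = 0.809 for both). Among all other genes Tex37 was nearest to Tnp1 (r = 0.994) and to Tnp2 (r = 0.992), and Tfam and Gm4665 were in the nearest 5 of both. Nearest to Prm3 were Spert (r = 0.991), 1700024P04Rik, Ccdc54, Smcp and Fam71e1. Smcp encodes a cysteine-rich protein of the sperm mitochondria. Nearest to Prm1 were 4921507P07Rik (r = 0.987), 1700015G11Rik, the histone variant gene H2afb1, Klk1b8 and 1700084D21Rik. Nearest to Prm2 was 1700027A15Rik (r = 0.999), the gene that overlaps Tnp1 on the other strand and whose pattern was like Prm2 rather than Tnp1, before 1700015G11Rik, Oxct2b, Bpifa3 and Gm498.

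Between genotypes, Prm3 showed the most even difference. Its level was lower in KO in each cluster from the Cd46 cluster to the Car2 cluster, by log2 ratios (KO over WT) between -0.36 in the Prss58 cluster and -0.47 in the Cd46 cluster. In the Prss58, Tex37 and Klk1b8 clusters it stood at 3304, 3897 and 4719 CPM in WT and 2567, 3023 and 3556 in KO. The difference was also seen in each of the 10 pseudotime bins, with log2 ratios from -0.33 to -0.54. In the Cd46 to Tex37 clusters the pooled levels of the other 4 genes differed less, with log2 ratios from -0.15 to 0.08. Cells of the Cd46 cluster were spread widely, and their medians without called doublets were higher in KO for these 4 genes. In UMIs per 10000 UMIs of a cell they were 156.5 in WT and 224.2 in KO for Prm1. For Prm2 they were 68.9 and 89.36, for Tnp1 25.04 and 31.21 and for Tnp2 30.47 and 48.89. The Cd46 median of Prm3 was lower in KO, at 19.87 and 14.32.

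**Figure D4:**
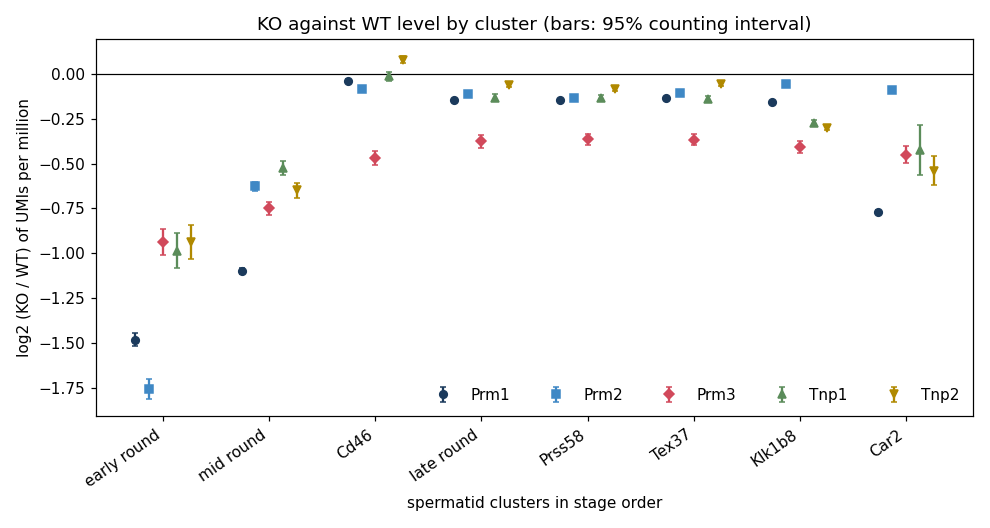
Log2 of the KO over the WT level of each gene in the 8 clusters from early-stage round spermatid-like to Car2 cells, with 95% counting intervals as bars. Prm3 (red diamonds) lies below the other genes from the Cd46 to the Klk1b8 cluster, at -0.36 to -0.47, and Prm1 falls to -0.77 in the Car2 cluster.

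In late-stage round spermatid-like cells Prm1 was lower in KO by a log2 ratio of -0.15 (-0.15 to -0.14), Prm2 by -0.11 (-0.12 to -0.10), Tnp1 by -0.13 (-0.15 to -0.11) and Tnp2 by -0.06 (-0.07 to -0.05). The log2 ratio of Prm3 was -0.37 (-0.41 to -0.34). Clustered without integration of the libraries, the late-stage log2 ratios were -0.57 for Prm1, -0.47 for Prm2, -0.67 for Prm3, -0.50 for Tnp1 and -0.46 for Tnp2. In the Klk1b8 cluster the transition protein genes came apart from Prm1 and Prm2, Tnp1 at -0.27 and Tnp2 at -0.30 against -0.16 and -0.06. Prm3 was at -0.41 there. By pseudotime bin, Tnp1 went from -0.07 in bin 6 to -0.79 in bin 8, and Tnp2 from -0.06 to -0.84. Whether WT and KO cells lay at different positions within the cluster was not tested. In the Car2 cluster the pooled level of Prm1 was lower by -0.77 (-0.78 to -0.76), from 105600 CPM in WT to 61880 in KO. The pooled level of Prm2 was lower by -0.09 (-0.10 to -0.08). The pooled log2 ratio of Tnp1 there was -0.42, but the median cell held 1.785 Tnp1 UMIs per 10000 in WT and 1.972 in KO. Medians of Prm2 and Tnp2 were also higher in KO, against the pooled direction. Without called doublets they were 720.3 in WT and 762.6 in KO for Prm2. For Tnp2, at a pooled -0.54, they were 7.158 and 7.848. The medians of Prm1 were 962.9 and 373.3.

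Pooled over the 4 elongating clusters, the sum of the 5 genes was 237700 CPM in WT and 208700 in KO, a log2 ratio of -0.19 (-0.19 to -0.19). The gene by gene log2 ratios were -0.20 for Prm1, -0.29 for Prm2, -0.47 for Prm3, -0.03 for Tnp1 and 0.05 for Tnp2. These pooled values mix the clusters in unlike proportions, and with equal weight per cluster Prm2 was at -0.09, Tnp1 at -0.19 and Tnp2 at -0.14, while Prm3 was at -0.40. The Prm2 share of Prm1 and Prm2, 26.97% in WT and 25.78% in KO when pooled, was 28.44% and 31.79% with equal weight per cluster. The size criterion asked that 25% or more of the cells of a genotype hold the gene. It also asked that ln(mean counts per 10000 + 1), with the mean taken over cells first, differ by 0.25 or more. A gene that met both was past the criterion. Prm3 alone of the 5 was past it, lower in KO at -0.33. Of all 2381 genes tested, 2.23% were lower and 9.41% were higher. The median log2 ratio of all tested genes was 0.10. In late-stage round cells none of the 5 was past it, with 1.88% of 3773 genes lower and 3.47% higher, and Prm3 lay just outside at -0.249.

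Early-stage and mid-stage round spermatid-like cells gave larger pooled differences, and those of mid-stage cells rested largely on few cells. In mid-stage cells the sum was 15580 CPM in WT and 8439 in KO. Cells with over 5% of their UMIs from the 5 genes, a limit set after the values were seen, were 61 of 704 in WT and 34 of 637 in KO, and held 75.6% and 63.9% of these UMIs. Scrublet called 59 of the 61 and 30 of the 34 doublets. Without all called doublets the mid-stage log2 ratio of Prm1 moved from -1.10 to -0.17 and that of Prm2 from -0.63 to 0.26. The medians stayed lower in KO, at 7.43 UMIs per 10000 in WT and 4.72 in KO for Prm1 and at 2.30 and 1.51 for Prm2. The log2 ratio of Prm3 was -0.69 (-0.73 to -0.65), from 1453 CPM in WT to 900 in KO.

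The early-stage difference rested less on few cells and was also seen in the median cell. Only 9 of 800 WT cells and 1 of 756 KO cells had over 5% of their UMIs in the 5 genes. They nevertheless held 34.8% and 13.5% of these UMIs, and the other cells stood at 2642 CPM in WT and 1304 in KO. Without called doublets the median early-stage cell held 12.47 UMIs of the 5 genes per 10000 in WT and 6.60 in KO. With all cells the log2 ratio of Prm2 was -1.76. In early-stage round cells without doublets all 5 genes were lower in KO, by log2 ratios of -1.06 for Prm1, -0.96 for Prm2, -0.86 for Prm3, -0.97 for Tnp1 and -0.86 for Tnp2. Levels in cells that should lack the transcripts were lower too. The median Leydig-like cell held 14.4 UMIs of the 5 genes per 10000 in WT and 7.56 in KO, and the median Piwil1 spermatocyte held 5.05 and 3.08. The library as a whole held 9.75% of its UMIs in the 5 genes in WT and 5.38% in KO. The part of the background in the early-stage difference was not tested.

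Outside the spermatids, transcripts of the 5 genes were counted in nearly every cell. In droplet and microwell data RNA set free from broken cells can be captured with any cell. Of 93 WT and 1170 KO Leydig-like cells, 1 and 46 had none of these UMIs. Leydig-like cells held 11530 CPM of the 5 genes in WT and 9374 in KO, which was 4.85% (4.76 to 4.94) and 4.49% (4.46 to 4.52) of the elongating level. For the 20 other most abundant transcripts of elongating cells the median of that percentage was 10.95% in WT and 6.07% in KO, with the lowest at 4.86% and 4.77%. These 20 were chosen by abundance alone, so some may be transcripts that Leydig-like cells make themselves.

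The means in Leydig-like cells came from a few cells. Only 7 of 93 WT cells and 41 of 1170 KO cells had over 5% of their UMIs in the 5 genes, and these held 81.1% and 76.2% of them. Scrublet called 2 of the 7 and 22 of the 41 doublets. The remaining cells, set apart by the level of the 5 genes itself, had means of 2389 CPM in WT and 2352 in KO, whereas the median over all Leydig-like cells was 14.4 UMIs per 10000 in WT and 7.56 in KO. Spermatogonia-like cells showed the same concentration, with 17 of 188 WT cells holding 89.9% and 61 of 1064 KO cells holding 81.7% of these UMIs, and Scrublet called 8 of the 17 and 52 of the 61. Without called doublets the Leydig-like sum was 9712 CPM in WT and 5135 in KO.

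Sertoli-like cells, the somatic cells that nurse the germ cells and take up what spermatids shed, differed more. The median Sertoli-like cell held 1296 UMIs of the 5 genes per 10000 in WT, within a range of 3.43 to 3238, and 10.2 in KO, within 0 to 2991. Over 5% was found in 32 of 51 WT cells, 62.75% (48.08 to 75.87), and in 45 of 448 KO cells, 10.04% (7.42 to 13.21). Scrublet called none of the 32 and 17 of the 45. The sum stood at 133800 CPM in WT and 18670 in KO, and at 7792 and 4452 in the remaining cells. The cluster was mostly of KO cells, and clustering without integration put 35 WT and 462 KO cells in it. Macrophage-like cells, which engulf debris, were over 5% in 6 of 22 WT and 16 of 69 KO cells, with no doublet called among them. How the transcripts came to be counted in Sertoli-like and macrophage-like cells was not tested.

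**Figure D5:**
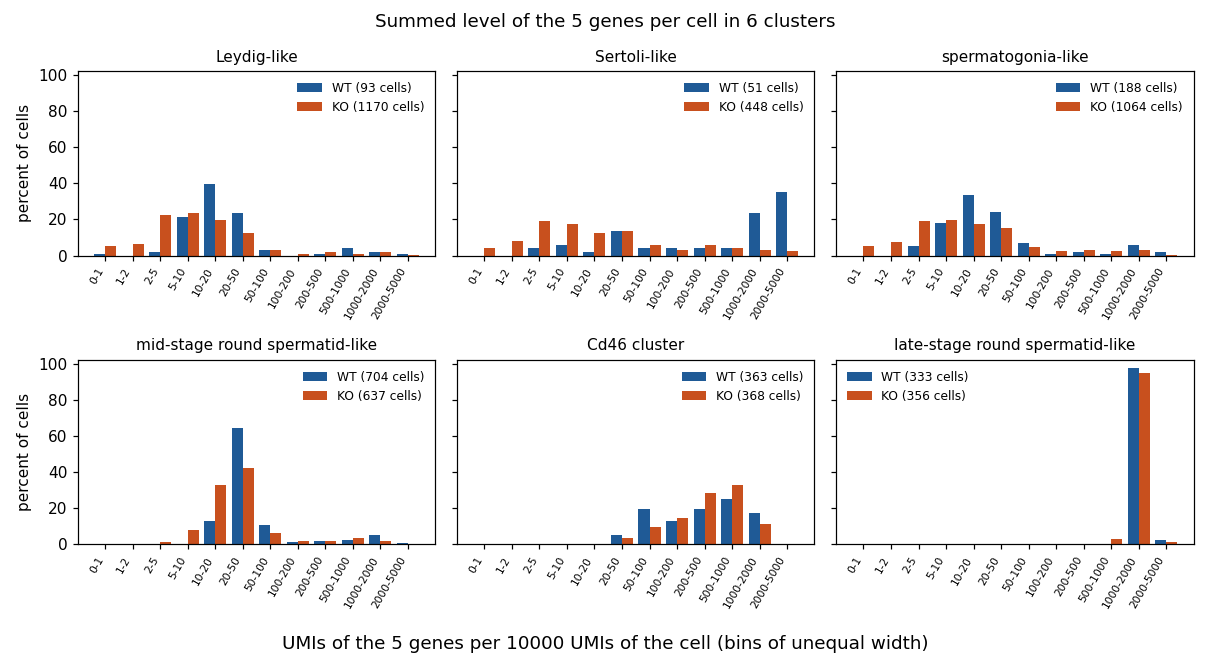
Percent of cells (vertical axis) by their UMIs of the 5 genes per 10000 UMIs (bins of unequal width) in 6 clusters, WT in blue and KO in orange. Leydig-like and spermatogonia-like cells lie mostly below 50 with a small group above 500, WT Sertoli-like cells lie mostly above 1000, cells of the Cd46 cluster are spread out and late-stage round cells are narrow.

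Prm1 was the main stray transcript, and the make-up was near that of elongating cells for some genes and not for others. Prm1 made up 63.5% of the 5 genes in WT Leydig-like, 64.1% in WT Sertoli-like and 61.5% in WT elongating cells, and 59.68%, 60.04% and 61.1% in KO. Tnp2 made up 7.73%, 7.69% and 8.41% in WT and 8.40%, 7.97% and 9.95% in KO. Prm3 made up 2.77% in WT Leydig-like against 1.72% in WT elongating cells, and Tnp1 4.43% against 5.66%. In KO, Prm2 made up 24.85% in Leydig-like against 21.23% in elongating cells. The Prm2 share of Prm1 and Prm2 was higher in KO than in WT in both, at 29.4% against 25.3% in Leydig-like and 28.8% against 24.6% in Sertoli-like cells, although it was lower in KO over the whole libraries, at 26.1% against 26.7%. Early-stage and mid-stage round cells had another make-up, with Prm3 at 9.88% and 10.01% in WT and 13.68% and 10.99% in KO, against 1.72% and 1.41% in elongating cells.

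By the size criterion 4 of the 5 genes were lower in KO in Leydig-like cells (Prm1, Prm2, Prm3 and Tnp2), where 4.48% of 3484 genes were lower and 2.9% higher. In Sertoli-like cells all 5 were lower, where 19.9% of 5013 genes were lower and 41.3% higher. The median log2 ratio of all genes tested was -0.06 in Leydig-like and 0.93 in Sertoli-like cells.

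A list of 42 other genes of histone exchange, spermatid transcription and mRNA storage was examined in the pooled elongating cells. Of these, 41 were in the tables and 22 had a UMI in enough cells. By the size criterion 7 of the 22 were higher in KO and 1 was lower, where 9.41% of all genes tested were higher and 2.23% lower, with a median log2 ratio of 0.14 over the 22 against 0.10 over all genes tested. Among the histone variants H2al3 (480.9 CPM in WT, 1586 in KO, log2 ratio 1.72), H2al1n (1.54) and Hils1 (0.32), the linker histone of spermatids, were higher. Among chromatin factors Cdyl (0.90) and Phf7 (0.52) were higher, and Tssk6, a testis kinase needed for normal sperm chromatin, was lower, from 753.1 CPM to 529.1 (-0.51). Among storage and translation genes Ybx3, which encodes a Y-box protein that binds stored spermatid mRNAs, went from 78.2 to 267 CPM (1.77), and Papolb, the testis poly(A) polymerase, was higher by 0.68. None of the 3 transcription genes tested was past the criterion. These values are pooled over clusters filled in unlike proportions, so the same genes are given in late-stage round cells. There H2al3 was 789.1 CPM in WT and 1901 in KO, H2al1n 113.4 and 344, and Ybx3 248.4 and 362.5. Hils1 was 5534 and 5611, Phf7 1739 and 1841, Cdyl 1075 and 1024, Papolb 272.3 and 271.8, and Tssk6 430.6 and 364.7.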

How the data were processed

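Per the labels and the methods of the study, single-cell suspensions of testis were loaded onto a microfluidic device and sequenced with the GEXSCOPE kit. The authors deposited raw UMI counts per gene and cell, 1 table per library, not normalized. Their processing notes name FastQC 0.11.7, fastp, STAR 2.5.3a, featureCounts 1.6.2 and Seurat. The methods name a human build while the symbols are those of mouse genes, and the rule that chose the barcodes is not given in the sources used here. Genes listed for a single library were set to 0 in the other.

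Cells were integrated and clustered with Seurat 5.3.0 in R 4.3.3 (over 500 genes, 2000 variable features, 20 anchor dimensions, 30 components, resolution 0.3), and 3 of the 5 genes were removed from the features they were among. A cluster was named with 3 or more markers that had a UMI in 10% of its cells and were 2 times higher than elsewhere, unless markers of another class led it. Scrublet in scanpy 1.11.5 called doublets (expected rate 0.06), which were kept except where stated. Germ cell clusters were to be ordered by pseudotime from the spermatogonia-like cells; that order was faulty because this cluster linked to all others, so clusters were ordered along the strongest chain of neighbours, and pseudotime was used only from late-stage round cells onwards. Levels are sums of UMIs, with exact Poisson, exact conditional and Clopper-Pearson intervals computed in Python 3.11.15 with scipy 1.17.1. The size criterion was tested on cells simulated from the summed WT counts of a class, with 3-fold changes. That simulation cannot judge smaller differences or clusters mixed in unlike proportions, because it held neither. Named genes were the 5 members, the 5 genes most like each, Alkbh5 and genes of the list past the size criterion. Members, markers and lists were chosen with earlier results of these data known, and some markers come from lists in the study.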

Additional observations from a re-analysis of the deposited data

Results flagged for a closer look

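With all cells kept, the genotype difference of 3 of the 5 genes pointed in opposite directions at different stages, beyond counting error. With 1 library per genotype the difference between stages was not tested. Tnp1 was lower in KO in 9 of 10 pseudotime bins, most in bin 9 (log2 ratio -0.98, -1.12 to -0.85), and higher in bin 10 (1.40, 1.21 to 1.59). Tnp2 was likewise lower in 9 bins, most in bin 9 (-0.90), and higher in bin 10 (0.59, 0.47 to 0.71). By cluster, Tnp2 was higher in KO in the Cd46 cluster (0.08, 0.06 to 0.10) and lower in the other 11 germ cell clusters with all cells kept. Without called doublets all 5 genes were higher in KO in the Pabpc6 cluster. The log2 ratios there were 0.09 for Prm1, 0.46 for Prm2, 0.40 for Prm3, 0.30 for Tnp1 and 0.32 (0.19 to 0.45) for Tnp2. The medians of Prm1, Prm2 and Tnp2 there were lower in KO, and those of Prm3 and Tnp1 were 0 in both libraries. In the Cd46 cluster without called doublets the pooled levels of Prm1 (0.03) and Tnp1 (0.04) were higher in KO. Those of Prm2 (-0.03) and Prm3 (-0.47) were lower, although the median of Prm2 was higher in KO. The mid-stage interval of Tnp2 then took in 0 (-0.07, -0.16 to 0.01). Prm2 was higher in KO in bin 9 (0.15, 0.13 to 0.16) and in bin 8, and lower in the other 8, most in bin 10 (-0.23).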

How the results depend on the processing

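No paired analysis was possible because the labels carry no replicate numbers and each genotype is 1 library. The pooled log2 ratio of the 5 genes in elongating cells, -0.19, was -0.24 without integration and with totals that leave out the 5 genes, -0.20 with at least 1000 genes per cell and with equal weight per cluster, -0.18 without mitochondrial and ribosomal genes, and -0.19 after thinning and with equal weight per pseudotime bin. Tnp2, at 0.05, reversed to -0.14 with equal weight per cluster and -0.15 per bin. The Leydig-like percentage of the elongating level was 4.85 in WT and 4.49 in KO. It was 3.86 and 2.82 at resolution 0.8, 5.14 and 4.77 without integration, 4.08 and 2.46 without doublets, 3.74 and 3.59 with totals without the 5 genes, 5.49 and 5.14 without mitochondrial and ribosomal genes and 4.96 and 3.48 after thinning, and 5.34 in WT with the 5 genes among the features. The Prm2 share, 26.97% in WT and 25.78% in KO, was 28.44% and 31.79% with equal weight per cluster, 27.33% and 30.05% per bin, 26.52% and 25.52% with at least 1000 genes, 27.02% in WT with the 5 genes kept, 27.01% at resolution 0.8, 26.91% without doublets and 26.65% after thinning, and 25.70% in KO without integration. Genes past the size criterion in elongating cells, 224 higher and 53 lower, were 149 and 17 at a CPM ratio of 2 (Prm3 not among them) and 123 and 34 with equal weight per cluster. The causes were not tested. Of 90 values of single genes under other settings, 45 moved by less than the counting interval, 43 by more, and 2 reversed.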
